A study of Rattus norvegicus with 24 samples.

Results

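The genes described here are the core enzymes that make fatty acids in liver, Fasn, Acaca, Acly and Scd, together with Srebf1, the gene of the transcription factor that drives them. They were taken by their Ensembl IDs, by a rule that uses no measured value, and all 5 are among the 18056 gene rows of the deposited tables. Acly (ENSRNOG00000016924) encodes ATP citrate lyase, which cuts citrate exported from mitochondria into acetyl-CoA. Acaca (ENSRNOG00000034013) encodes acetyl-CoA carboxylase 1, which turns acetyl-CoA into malonyl-CoA. Fasn (ENSRNOG00000045636) encodes fatty acid synthase, which builds palmitate from these units. Scd (ENSRNOG00000013552) encodes stearoyl-CoA desaturase, which introduces a double bond into the saturated products. Srebf1 (ENSRNOG00000003463) encodes SREBP-1, a membrane-bound factor that is cut free and enters the nucleus when insulin and sterol-sensing signals allow. In liver this pathway is known for its strong dependence on feeding: transcripts of these enzymes are high after carbohydrate intake and low in fasting.

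Livers came from rat offspring at about postnatal day 48. On gestation days 5 and 6 their dams had spent 4 hours in filtered air or in ozone at 0.8 ppm, and all offspring analysed here had themselves inhaled ozone in postnatal weeks 5, 6 and 7, at 0.4 ppm in the first of these weeks and 0.8 ppm later. The 4 groups of 6 animals are males and females of air-exposed dams and males and females of ozone-exposed dams. Offspring kept in filtered air were not analysed here, so every level below is a level after ozone inhalation, and a response to that inhalation cannot be read from it. No source used here gives the strain, or the dam or litter of each animal, so littermates may be among them. The tests take the animals as independent and judge group differences against the variation among these animals. With dams and litters unknown, how far that variation covers differences between dams cannot be told. The study asked whether maternal ozone alters the metabolic response of offspring to ozone.

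Library totals ran from 8462290 to 14564700 estimated counts, apart from 1 library of a female of an ozone-exposed dam (replicate 6) at 36232100. The smallest count of any of the 5 genes in any library was 153 (Acaca), for which counting error alone gives a 95% Poisson interval of 130 to 179, so counting error is small beside the differences between animals given below. Levels are given as CPM, counts scaled to a common library size after TMM normalization, which also corrects for composition. They are compared between animals, not between genes, because no transcript lengths were used. The files do not pair IDs with names, so hepatocyte, other cell type and sex-linked markers were not checked here, and sex is as labelled. In whole liver, fewer hepatocytes and less RNA per hepatocyte cannot be told apart.

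The start regions of these genes, where available, are shown as background. Whether they bear on the variation between animals was not tested. RefSeq promoter windows on build GRCr8 were available for Acly, Scd and Srebf1, the last with 2 start sites, while the counts were made on rn6. Fasn and Acaca had no entry. SREBP-1a and SREBP-1c are made from separate starts of Srebf1, and the gene-level counts do not separate them. Each sequence holds the 250 bases before the start site, 5′ to 3′. Capitals mark CCAAT, the box bound by NF-Y, and GGGCGG, the GC box bound by Sp1, on either strand, 2 factors known to act beside SREBP.
Acly (chr10:85963632-85963881, minus strand): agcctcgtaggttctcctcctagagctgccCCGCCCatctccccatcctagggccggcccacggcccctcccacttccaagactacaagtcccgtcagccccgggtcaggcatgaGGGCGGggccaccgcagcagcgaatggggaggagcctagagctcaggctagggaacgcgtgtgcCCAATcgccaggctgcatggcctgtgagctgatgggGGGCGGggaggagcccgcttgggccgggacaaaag
Scd (chr1:253231732-253231981, minus strand): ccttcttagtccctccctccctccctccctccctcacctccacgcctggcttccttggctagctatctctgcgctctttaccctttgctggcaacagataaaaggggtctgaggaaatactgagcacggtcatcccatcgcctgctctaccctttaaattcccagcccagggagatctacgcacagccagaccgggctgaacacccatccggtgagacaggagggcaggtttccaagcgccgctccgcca
Srebf1, upstream start (chr10:45529165-45529414, minus strand): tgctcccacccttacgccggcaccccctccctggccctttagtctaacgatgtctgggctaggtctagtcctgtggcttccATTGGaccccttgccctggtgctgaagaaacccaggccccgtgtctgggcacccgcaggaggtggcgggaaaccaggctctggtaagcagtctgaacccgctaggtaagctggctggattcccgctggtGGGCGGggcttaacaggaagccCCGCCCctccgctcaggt
Srebf1, downstream start (chr10:45519011-45519260, minus strand): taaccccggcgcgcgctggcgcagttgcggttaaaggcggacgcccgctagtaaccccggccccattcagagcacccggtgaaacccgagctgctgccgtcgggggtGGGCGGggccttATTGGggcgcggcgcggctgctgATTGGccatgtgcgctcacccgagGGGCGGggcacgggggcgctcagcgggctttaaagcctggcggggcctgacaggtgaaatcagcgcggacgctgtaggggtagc

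The Acly window held 1 CCAAT box, its first base 71 bases before the start (position -71), and 3 GC boxes, the nearest at -35. The downstream Srebf1 window held 2 CCAAT boxes, at -131 and -108, and 2 GC boxes, while the upstream window held 1 CCAAT box and 2 GC boxes. Among 33469 windows of the same length, 34% had CCAAT and 30.5% had GGGCGG. The sterol regulatory element, searched as TCACNCCAC on both strands, was in 0 of the 4 windows and in 0.974% of all windows. The E-box CANNTG, which SREBP-1 also binds, occurred 3 times in the downstream Srebf1 window and in none of the other 3, against 65.5% of all windows having at least 1. The Scd window held none of these letters, nor TATAAA, which 12.9% of windows had. The matches did not overlap. They describe these letters in these windows and show no binding.

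Maternal ozone was not followed by a detectable change of any of the 5 genes in either sex, and the animals within each group differed widely. In males 0 of 5 genes were called (edgeR quasi-likelihood test, Benjamini-Hochberg adjusted p under 0.05), while 21.3% of 12541 tested genes were. In females 0 of 5 were called, where the background was 0.271% of 12538 genes. At an unadjusted p under 0.05 (same test) there was 1 gene in males, Srebf1, beside 4393 of 12541 tested genes. In females there were 0, beside 2001 of 12538. The fitted differences, maternal ozone minus air, were above zero for all 5 genes in males, with a median of 0.31 on the log2 scale. They were below zero for all 5 in females, with a median of -0.48. The signed median over all tested genes was 0.00 in both sexes, and normalization keeps it near zero. Their median absolute log2 difference was 0.26 in males and 0.18 in females. In males 47.1% (Fasn) to 60.3% (Scd) of genes had a smaller absolute difference. In females this was 8.15% for Acly and 73.7% (Srebf1) to 94.6% (Acaca) for the others. The fitted variation of the 5 genes between animals was itself high. It was above that of 56.7% (Srebf1) to 96.4% (Fasn) of genes in males. In females it was above that of 97.4% (Acaca) to 99.2% (Scd), so a large absolute difference alone does not show a shift. The 5 genes varied together between animals, so their shared sign is not 5 independent results. DESeq2 also called 0 of the 5 genes in each sex, beside 3080 of 12541 genes in males and 332 of 12538 in females.

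**Figure D1:**
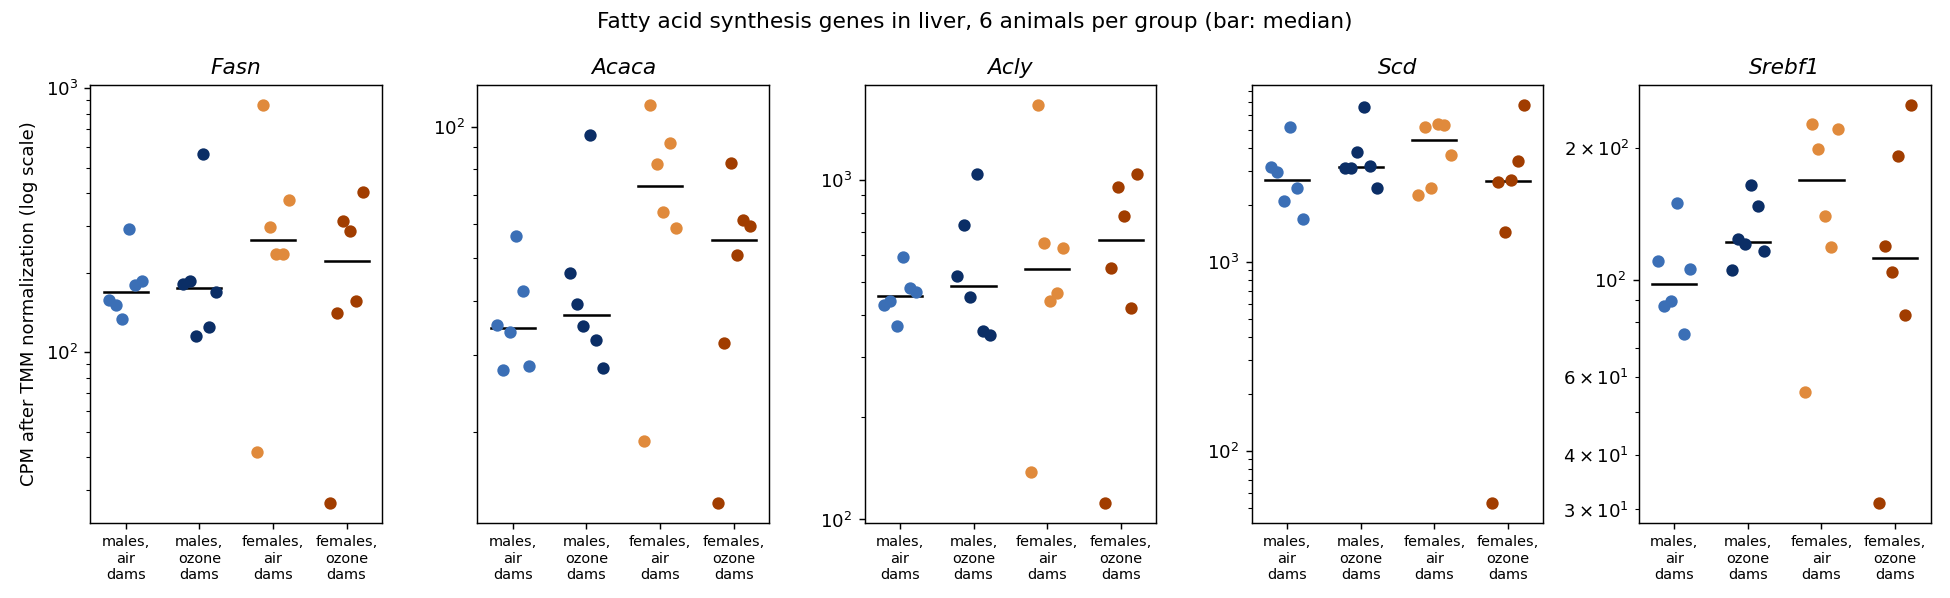
Level of each gene in each of the 24 livers, in CPM on a log axis with its own scale per gene, with 1 point per animal and a bar at the group median. The ranges of the groups overlap for every gene. In females, replicate 1 of each dam group lies below the others of its group in Fasn, Acaca, Acly and Srebf1, and in Scd replicate 1 of the ozone-exposed dams lies at 53.0 CPM.

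Acly, at the entry of the pathway, ranged from 371 to 594 CPM in males of air-exposed dams (median 453) and from 350 to 1040 CPM in males of ozone-exposed dams (median 487). In females it ranged from 138 to 1662 CPM with air-exposed dams (median 547) and from 112 to 1038 CPM with ozone-exposed dams (median 666). The male groups overlapped, with 2 males of ozone-exposed dams above and 2 below all males of air-exposed dams. Acly had the smallest fitted maternal difference in females among the 5 genes, a log2 change of -0.03 ± 0.64 (SE; edgeR adjusted p = 0.989), and 0.31 ± 0.25 in males (adjusted p = 0.396). The 95% intervals allow a fold from 0.857 to 1.80 in males and from 0.362 to 2.66 in females.

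Acaca, which commits acetyl-CoA to fatty acids, was at 27.7 to 56.4 CPM in males of air-exposed dams (median 34.6) and at 28.0 to 95.9 CPM in males of ozone-exposed dams (median 37.1). Females ranged from 19.1 to 112 CPM with air-exposed dams (median 73.2) and from 13.7 to 82.9 CPM with ozone-exposed dams (median 55.1). Of the 6 females of ozone-exposed dams, 1 was above the median of the females of air-exposed dams, and 5 lay within their range. The fitted difference was 0.28 ± 0.30 on the log2 scale in males (edgeR adjusted p = 0.540) and -0.61 ± 0.46 in females (adjusted p = 0.556). The female interval runs from a fold of 0.322 to 1.34.

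Fasn, the synthase itself, ranged from 134 to 293 CPM in males of air-exposed dams (median 169) and from 115 to 566 CPM in males of ozone-exposed dams (median 175). In females it spanned 42.0 to 866 CPM with air-exposed dams (median 267) and 26.8 to 405 CPM with ozone-exposed dams (median 222). The highest liver thus had 32.3 times the CPM of the lowest, and both were female. The fitted difference was 0.25 ± 0.38 in males (edgeR adjusted p = 0.687) and -0.59 ± 0.74 in females (adjusted p = 0.730), both on the log2 scale. The interval of the fold was 0.661 to 2.12 in males and 0.212 to 2.07 in females. It includes a 2-fold rise in each sex, and in females also a fall to a fold of 0.212.

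Scd, which acts on the finished chain, ranged from 1687 to 5183 CPM in males of air-exposed dams (median 2713) and from 2445 to 6608 CPM in males of ozone-exposed dams (median 3174). Females of air-exposed dams had 2246 to 5343 CPM (median 4400.4), and females of ozone-exposed dams 53.0 to 6756 CPM (median 2675). In the last group 5 females lay between 1431 and 6756 CPM, and the lowest, replicate 1, stood apart. The fitted difference was 0.33 ± 0.28 in males (edgeR adjusted p = 0.430) and -0.48 ± 0.76 in females (adjusted p = 0.795) on the log2 scale.

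Srebf1, the regulator, was at 75.3 to 149 CPM in males of air-exposed dams (median 97.7) and at 105 to 165 CPM in males of ozone-exposed dams (median 122). All 6 males of ozone-exposed dams were above the median of the males of air-exposed dams, yet 5 of the 6 lay within their range. Females ranged from 55.5 to 226 CPM (air-exposed dams, median 169) and from 31.1 to 250.3 CPM (ozone-exposed dams, median 112). In males the fitted difference was 0.33 ± 0.15 on the log2 scale, a fold of 1.26 with an interval of 1.01 to 1.57, with an unadjusted p of 0.0438 and an edgeR adjusted p of 0.130. It passed the threshold in 1 of 22 alternatives, without air replicate 4, the male of an air-exposed dam with the highest Srebf1 (0.53 ± 0.11, adjusted p = 0.00949). Over the 22 alternatives the adjusted p ran from 0.00949 to 0.719. In females the difference was -0.30 ± 0.49 (adjusted p = 0.797).

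**Figure D2:**
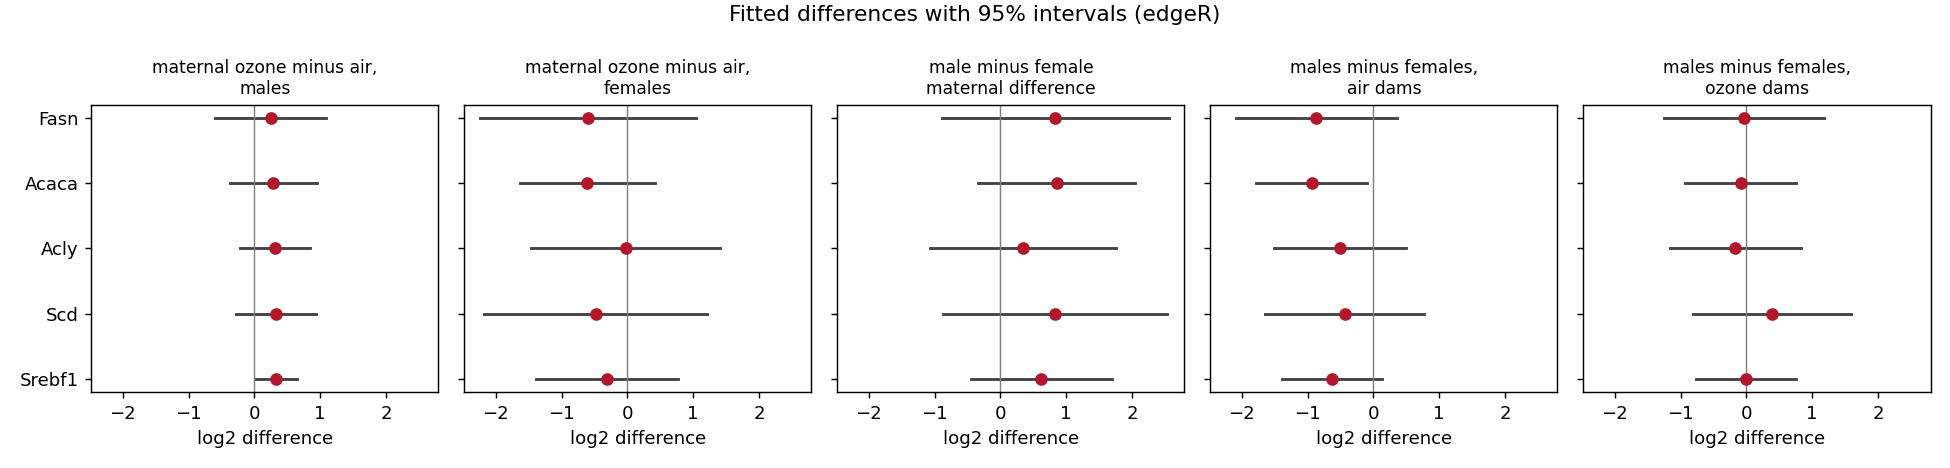
Fitted log2 differences of the 5 genes (points) with 95% intervals (lines) for the maternal difference in males and in females, the male minus the female maternal difference, and males minus females within each dam group. The intervals of Srebf1 in the first panel and of Acaca among offspring of air-exposed dams miss zero, and neither passed after adjustment over all genes.

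The male differences moved with the highest animal of each dam group. Replicate 4 of the males of ozone-exposed dams had the highest level of its group for all 5 genes, with 566 CPM of Fasn, 95.9 of Acaca, 1040 of Acly, 6608 of Scd and 165 of Srebf1. Without this animal the log2 difference in males was -0.35 for Fasn, -0.16 for Acaca and -0.03 for Acly, while Scd was at 0.05 and Srebf1 at 0.26. Leaving out replicate 4 of the males of air-exposed dams, the highest of its own group for all 5 genes, moved the values the other way. They were then 0.51 for Fasn, 0.46 for Acaca, 0.43 for Acly and 0.65 for Scd (edgeR adjusted p = 0.0598 for Scd), beside the value of Srebf1 given above. The names of the libraries have 2 forms, which were treated as library sets. Within the first form (3 males of air-exposed against 2 of ozone-exposed dams, replicate 4 among the latter) the difference was 1.04 for Fasn and 1.05 for Acaca, 0.62 for Acly, 0.89 for Scd and 0.59 for Srebf1. Within the second form (3 against 4) it was -0.31, -0.25, 0.10, -0.05 and 0.16 in the same order, and 0 of 5 genes were called within either form.

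In females the values moved most with libraries at the ends of the range. Without replicate 6 of the females of ozone-exposed dams, the deepest library and the one with the highest Scd and Srebf1, the log2 maternal difference was -1.14 for Fasn, -1.45 for Scd and -0.95 for Srebf1. Without replicate 2 of the females of air-exposed dams, which had the highest Fasn, Acaca and Acly of all 24 livers, it was -0.05 for Fasn and 0.50 for Acly. Without replicate 1 of the females of ozone-exposed dams it was -0.27 for Fasn, -0.36 for Acaca, 0.29 for Acly, -0.17 for Scd and -0.08 for Srebf1. Without replicate 1 of the females of air-exposed dams it was -0.78, -0.75, -0.19, -0.60 and -0.47 in the same order. Scd was also nearer zero, at -0.29, without air replicate 5. Without both low libraries, replicate 1 of each female group, the differences were -0.44 ± 0.37 for Fasn, -0.49 ± 0.25 for Acaca, 0.15 ± 0.35 for Acly, -0.31 ± 0.27 for Scd and -0.24 ± 0.28 for Srebf1 (SE), and 0 of 5 were called. Within the first form of library names (3 against 2 females) the difference was -0.84 for Fasn, -0.83 for Acaca, -0.40 for Acly, -0.34 for Scd and -0.01 for Srebf1. Within the second form (3 against 4) it was -0.44, -0.46, 0.21, -0.59 and -0.53 in that order.

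**Figure D3:**
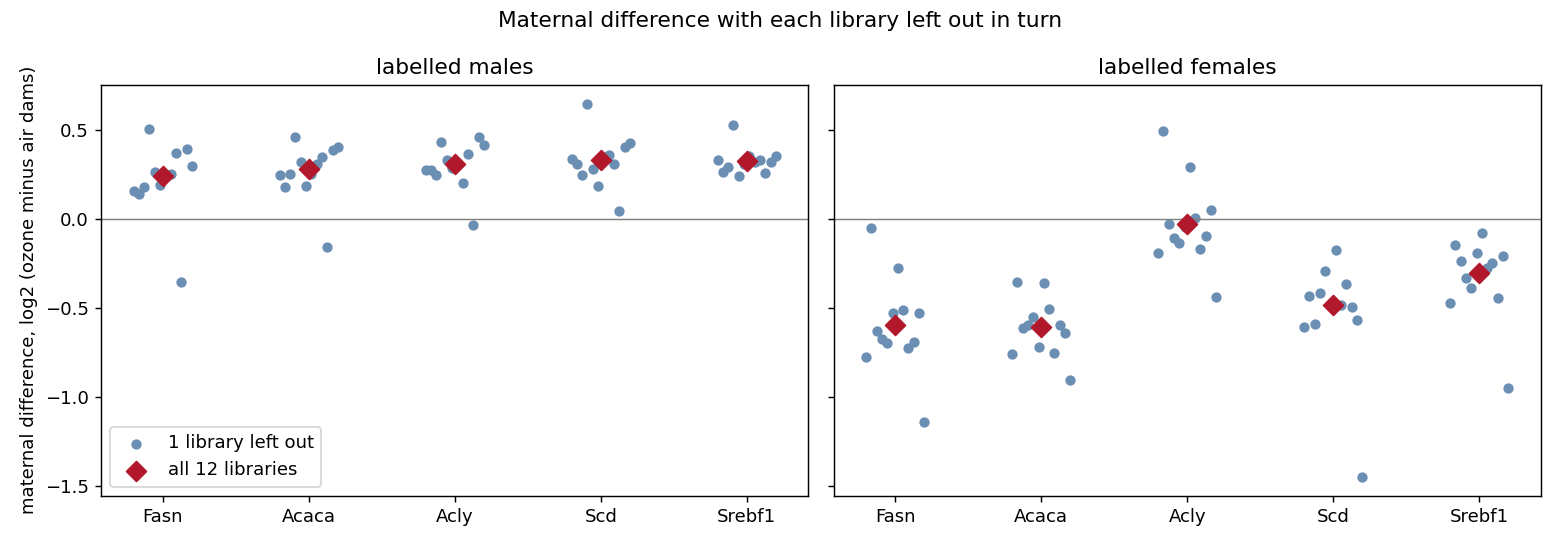
Maternal difference of each gene (log2, ozone-exposed minus air-exposed dams) with all 12 libraries of a sex (diamonds) and with each library left out in turn (small points). In males 1 omission, replicate 4 of the ozone-exposed dams, takes Fasn, Acaca and Acly below zero, and in females Acly falls on either side of zero.

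The opposite signs in the 2 sexes were not shown to be a difference between them. The test of the male minus the female maternal difference called 0 of 5 genes, against 23.3% of 12854 genes. Acaca had the largest value, 0.85 ± 0.57 on the log2 scale (edgeR adjusted p = 0.296), followed by Fasn at 0.83 ± 0.83, Scd at 0.83 ± 0.81, Srebf1 at 0.62 ± 0.51 and Acly at 0.34 ± 0.68. The adjusted p-values of the 5 genes ran up to 0.756. This order was not stable. Without replicate 4 of the males of ozone-exposed dams the values were 0.62 for Scd, 0.54 for Srebf1, 0.45 for Acaca, 0.38 for Fasn and 0.10 for Acly. With limma-voom, another test run on the same counts, they were 1.71 for Scd and 0.72 for Acaca. Within the first and the second form of library name they were 1.86 and 0.13 for Fasn.

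Among offspring of air-exposed dams all 5 genes had lower fitted levels in males than in females, and again 0 of 5 passed, against 51.5% of 12854 genes. Acaca came nearest. Of the 6 females, 5 were above every male and 1 was below every male. Acaca was at 37.3 ± 10.7 CPM in males and 71.4 ± 32.2 CPM in females (SD, n = 6 each). Its log2 difference, males minus females, was -0.94 ± 0.40 (SE; edgeR adjusted p = 0.0576), a fold of 0.522 with an interval of 0.291 to 0.935. It passed in 8 of 34 alternatives, DESeq2 among them (-0.95, DESeq2 adjusted p = 0.0349), and the adjusted p over all of them ran from 0.00332 to 0.339. The other differences were -0.87 ± 0.58 for Fasn, -0.63 ± 0.36 for Srebf1, -0.51 ± 0.48 for Acly and -0.44 ± 0.58 for Scd. With both low females left out, 3 of 5 genes were called lower in males, beside a background of 52.5% of 12945 genes. These were Acaca (-1.13 ± 0.29, edgeR adjusted p = 0.00332), Srebf1 (-0.83 ± 0.23, adjusted p = 0.00405) and Fasn (-1.07 ± 0.39, adjusted p = 0.0286). That omission was chosen after the levels had been seen, and it leaves out the low end of the females alone. Leaving out only replicate 1 of the females of air-exposed dams, as part of leaving out each library in turn, called Acaca (-1.12, edgeR adjusted p = 0.0143) and Srebf1 (-0.81, adjusted p = 0.0491). Leaving out replicate 2 of the same group, the highest for Fasn, Acaca and Acly, called none, with -0.71 for Acaca (adjusted p = 0.158) and -0.36 for Fasn. Over all genes, 6102 to 6816 were called in this comparison when 1 library was left out, beside 6621 with none left out.

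Among offspring of ozone-exposed dams 0 of 5 genes were called between the sexes, against 5.76% of all genes. The log2 differences, males minus females, were -0.03 ± 0.58 for Fasn, -0.08 ± 0.40 for Acaca, -0.17 ± 0.48 for Acly, 0.39 ± 0.57 for Scd and -0.01 ± 0.36 for Srebf1. The smallest edgeR adjusted p was 0.792. The intervals show how large a difference these animals would still allow. The narrowest, for Srebf1, was a fold of 0.590 to 1.68. Those for Fasn and Scd were wider, at 0.420 to 2.27 and 0.570 to 3.01.

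The group means followed a similar order for most of the genes, with wide spread. Females of air-exposed dams had the highest mean CPM of each of the 5 genes, with 343 ± 280 CPM of Fasn, 664 ± 522 of Acly, 4022 ± 1431 of Scd and 160 ± 67.0 of Srebf1 (SD, n = 6). Males of air-exposed dams had the lowest mean of 4 genes, with 184 ± 56.8 CPM of Fasn, 463 ± 74.4 of Acly and 103 ± 26.1 of Srebf1, and for Scd females of ozone-exposed dams were lowest at 2830 ± 2256 CPM. For Fasn, Acly, Scd and Srebf1 parts of this order rested on 1 liver or on the scale. The Acly mean of females of air-exposed dams includes 1 liver at 1662 CPM, and their median of 547 CPM was below the 666 CPM of females of ozone-exposed dams. As mean log2 CPM, Acly was at 9.02 in that group, below males (9.06) and females (9.03) of ozone-exposed dams. On that scale Fasn was lowest in females of ozone-exposed dams, at 7.38 against 7.47 in males of air-exposed dams. Srebf1 was then higher in males (7.00) than in females (6.75) of ozone-exposed dams. Without the liver at 53.0 CPM, females of ozone-exposed dams had a mean of 3385 CPM of Scd, above the 2922 CPM of males of air-exposed dams. The gap between neighbours in this order was below the SD of both neighbours in 13 of 15 steps. The exceptions were males of ozone-exposed and air-exposed dams for Acly (576 ± 267 and 463 ± 74.4 CPM) and for Srebf1 (129 ± 22.1 and 103 ± 26.1 CPM).

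Most of these genes varied widely between animals of 1 group. The SD of log2 CPM for Fasn was 0.39 and 0.83 in males of air-exposed and ozone-exposed dams and 1.43 and 1.42 in the females. In females of air-exposed dams 99.6% of 9341 genes with a mean count of at least 50 varied less than Fasn, and the median SD of those genes was 0.24. Scd in females of ozone-exposed dams had an SD of 2.48, above that of 99.96% of these genes. Acly in males of air-exposed dams (0.22) and Srebf1 in males of ozone-exposed dams (0.24) were near the middle, above 55.6% and 44.2% of genes. With both low libraries left out, the female SDs of Fasn were 0.78 and 0.67, those of Acaca 0.38 and 0.50 and those of Scd 0.49 and 0.81, for air-exposed and ozone-exposed dams. Whether spread differed between the sexes was not tested.

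The animals that were high or low in 1 gene tended to be so in the others. As a summary, each gene's log2 CPM was centred on its mean over the 24 livers and averaged over the 5 genes. The lowest liver was replicate 1 of the females of ozone-exposed dams at -2.87, where all 5 genes had their lowest level of the series. Next was replicate 1 of the females of air-exposed dams at -1.34, second lowest for Fasn, Acaca, Acly and Srebf1, but with 2246 CPM of Scd against 53.0 CPM in the former. At the upper end stood replicate 2 of the females of air-exposed dams at 1.41, replicate 4 of the males of ozone-exposed dams at 1.08 and replicate 6 of the females of ozone-exposed dams at 0.98. Males averaged -0.16 ± 0.33 after maternal air and 0.08 ± 0.51 after maternal ozone (SD, n = 6 each). Females averaged 0.32 ± 0.90 after maternal air and -0.24 ± 1.35 after maternal ozone.

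**Figure D4:**
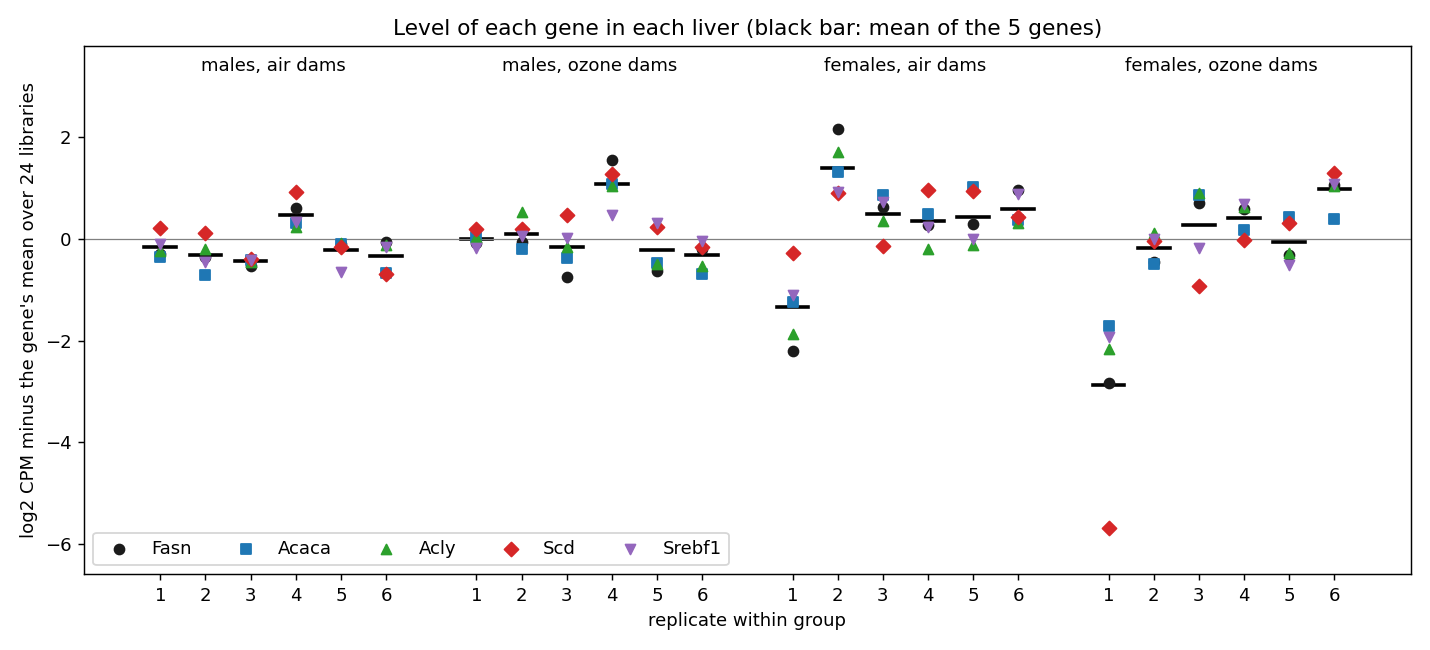
Log2 CPM of each gene minus its mean over the 24 livers (symbols), by animal and group, with a black bar at the mean of the 5 genes. The lowest bar is replicate 1 of the females of ozone-exposed dams at -2.87, where Scd lies far below the other 4 genes, and the highest is replicate 2 of the females of air-exposed dams at 1.41.

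Both low livers had ordinary depth, with 10126000 estimated counts in the female of an ozone-exposed dam and 13779100 in the female of an air-exposed dam. Over 9341 genes their mean correlation with the other livers of their group was 0.962 and 0.963, both among the lowest 4 of 24 in a range from 0.951 to 0.976. The 5 genes together made up 0.0260% of the counts in the lower of them and 0.262% in the other, against a mean of 0.536% ± 0.197 in females of air-exposed dams and 0.380% ± 0.253 in females of ozone-exposed dams (SD, n = 6 each, low livers included). Both carry the first form of library name, as do 8 other livers. The part of library set in these levels was not tested.

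Over the 24 livers, Fasn and Acly followed each other most closely, with a Pearson r of 0.95 on log2 CPM, and r was 0.88 for Fasn with Acaca and 0.86 for Fasn with Srebf1. The 10 pairs had a median r of 0.78 and a lowest of 0.62 (Acaca with Scd). Scd was the loosest member: its r with the mean of the other 4 genes was 0.71, against 0.93 for Fasn. These are descriptions over points that share group, depth and library set, and the low livers contribute much of them. With both left out, r was 0.88 for Fasn with Acly, 0.81 for Fasn with Acaca, 0.72 for Fasn with Srebf1 and 0.46 for Fasn with Scd, and the median of the 10 pairs was 0.58. With group means removed as well, Fasn with Acly stayed at 0.91 and Acaca with Srebf1 was at 0.17.

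**Figure D5:**
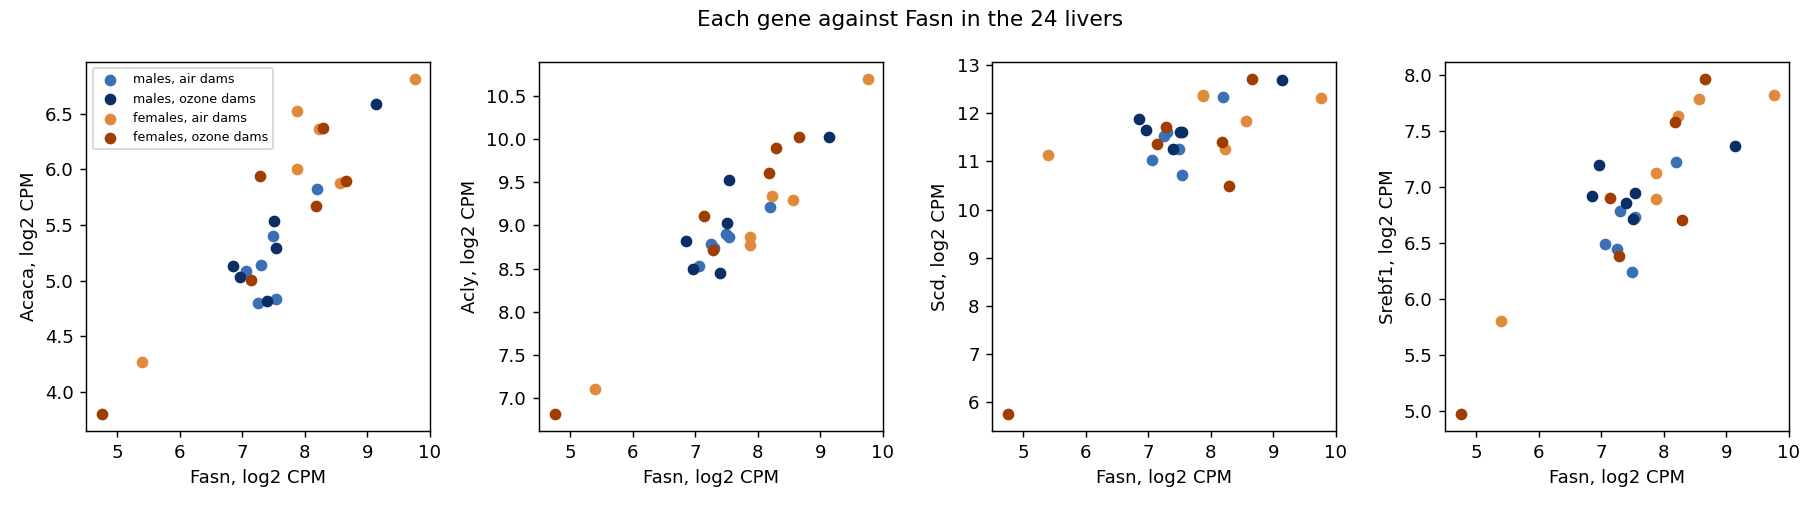
Acaca, Acly, Scd and Srebf1 against Fasn, all in log2 CPM, with 1 point per liver coloured by group. Acly follows Fasn most closely (r = 0.95 over 24 livers), and Scd follows it more loosely (r = 0.69, or 0.46 without both low livers), with 1 liver far below.

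The mean level of the 5 genes was also set against every other gene. Of 9336 further genes with a mean count of at least 50, 8 had an r over 0.8 with it over the 24 livers, and 1 had an r below -0.8. The closest were ENSRNOG00000020704 (r = 0.89, 48.5 to 373 CPM) and ENSRNOG00000036661 (r = 0.89, 4.49 to 15.6 CPM), whose r was 0.81 and 0.83 without the low livers. The most opposed was ENSRNOG00000016692, at an r of -0.82 (-0.58 without the low livers) and 19.2 to 98.7 CPM. These IDs have no symbol in the tables used, and the closest 2 were also among the 5 closest after removal of group means.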

How the data were processed

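Liver RNA selected for polyA tails was sequenced from 24 rats. The submitters' processing notes name Partek, STAR 2.6.1d, the build rn6 and DESeq2 without saying what each did. The annotation, the strandedness and any filter were not given in the sources used here. Tables of estimated counts by Ensembl gene were deposited, 1 per sex with 18056 rows, and their unequal totals show no scaling by depth. Values were fractional in 15 of 24 libraries for Acaca, 22 for Acly and Scd, 23 for Srebf1 and 0 for Fasn. Another 23 library columns match no sample used here and were left out.

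Counts were rounded and tested with edgeR 4.0.16 (R 4.3.3; TMM, robust quasi-likelihood, filterByExpr with minimum count 10 and total 15, form of the library name as covariate), on all genes, with Benjamini-Hochberg adjustment over all genes tested. All 5 genes passed the filter in every fit. Each sex was fitted alone for the maternal difference, and the 24 libraries together for the other tests. The joint fit gives each gene 1 dispersion, so its standard errors take the variation as equal in both sexes. For Srebf1 the fitted coefficient of variation was 0.195 in males alone, 0.564 in females alone and 0.428 in the joint fit. Standard errors are those implied by the F statistic, and intervals use its degrees of freedom. Log2 CPM used a prior count of 2. The fits were also run on simulated counts of independent animals, without litter or library set effects. The outcome is not given here, and nothing above rests on it. Alternatives were DESeq2 1.42.0, limma-voom (limma 3.58.1), RLE, library totals, other filters, no covariate, each form alone, 1 joint fit, each library left out, and, chosen after the levels were seen, 2 low female libraries left out.

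The rule for the 5 genes uses no measured value, but the genes and all lists were proposed with earlier results of these data known. The rule for named genes was all 5 members, list genes that pass in a maternal fit, and the genes most like the members' mean level. The lists of other lipid genes, regulators and cell type markers could not be used, since 0 reference symbols carry an Ensembl ID. Replicates are numbered in accession order.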

Additional observations from a re-analysis of the deposited data

Results flagged for a closer look

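In groups of 6, a value was set aside for a closer look where its distance to the nearest other value exceeded 0.625 of the whole range of the group. Of 24 sets of 6 values examined (5 genes and their mean level in 4 groups), 6 met this, and chance alone gives about 1 in 20. The sets overlap, since the mean level contains the genes.

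Replicate 4 of the males of ozone-exposed dams was high, at a log2 CPM of 9.15 for Fasn, with 7.54 for the next animal, and at 1.08 for the centred mean level of the 5 genes, with 0.11 for the next. Replicate 4 of the males of air-exposed dams had a mean level of 0.48, with -0.16 for the next. Replicate 1 of the females of air-exposed dams was low for Acaca, at a log2 CPM of 4.26 against 5.88 for the next. Replicate 1 of the females of ozone-exposed dams was low for Scd, at 5.73 against 10.5, and for the mean level, at -2.87 against -0.17.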

How the results depend on the processing

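No paired analysis was possible because the labels give each animal its own number and no pairing between groups. In the maternal fits none of the 5 genes was called in any alternative, apart from Srebf1 in males without air replicate 4. The direction of small differences depended on the setting, and the cause was not tested. With the second form of library name alone, males gave -0.31 for Fasn, -0.25 for Acaca and -0.049 for Scd, and Acly gave 0.21 in females and -0.11 for the difference between the sexes. With limma-voom, Scd was at -1.55 in females and 1.71 for the difference between the sexes, without a call. Without the low females, Acly was at 0.15 in females. Between the sexes with ozone-exposed dams, limma-voom gave 0.21 for Fasn, 0.050 for Acly, 0.27 for Srebf1 and 1.25 for Scd, a mean count of at least 50 gave 0.0051 for Srebf1, no covariate gave 0.013 for Fasn, and the first form alone gave 0.68, 0.80, 0.29 and 0.15 for Fasn, Acaca, Acly and Srebf1.

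With 1 library left out, the maternal difference in males ran from -0.35 to 0.51 for Fasn, -0.16 to 0.46 for Acaca and -0.032 to 0.46 for Acly, and in females from -0.44 to 0.50 for Acly. The difference between the sexes ran from -0.18 to 0.57 for Acly. Males minus females with air-exposed dams ran from -0.70 to 0.047 for Acly. With ozone-exposed dams it ran from -0.52 to 0.24 for Fasn, -0.50 to 0.10 for Acaca, -0.42 to 0.048 for Acly and -0.22 to 0.37 for Srebf1.

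Counts of called genes over the whole table moved more. In females 34 genes were called by edgeR (2001 at an unadjusted p under 0.05), 332 by DESeq2, 66 without the covariate, 1 in the joint fit, 9 and 0 with the first and second form alone (440 and 1453 unadjusted), and 0 without both low females (2011 unadjusted), with 0 (without air replicate 6, 2053 unadjusted) to 135 (without air replicate 1) when 1 library was left out. In males 2670 genes became 861 and 121 with either form alone, and 1684 to 3740 with 1 library left out. The difference between the sexes fell from 2994 to 432 and 450, the sex difference with air-exposed dams from 6621 to 3404 (first form), and that with ozone-exposed dams from 741 to 71 and 412. The median r of the 10 gene pairs was 0.78 (0.80 within groups), 0.65 (0.62) as Spearman's rho and 0.58 (0.50) without both low livers.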

Other observations

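Scd moved apart from Fasn in some livers. The ratio of Scd to Fasn CPM within a liver had a median of 16.7 over the 24 livers. It was highest in replicate 1 of the females of air-exposed dams at 53.5, followed by 32.9, and lowest in replicate 1 of the females of ozone-exposed dams at 1.97, followed by 4.56. The 2 livers with the lowest Fasn therefore had the extremes of this ratio on opposite sides. The ratio of Acly to Fasn varied far less, from 1.66 to 4.17 with a median of 2.70, and that of Srebf1 to Fasn from 0.261 to 1.32 with a median of 0.606. These ratios are of CPM not corrected for transcript length, so they can be compared between livers but not read as relative abundance of the transcripts.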
